A study of Ovis aries with 6 samples.

Results

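The count table of sheep rumen epithelial (RE) cells held 27452 identifiers. Of these, 51 passed a rule for genes nearly silent in untreated cells and raised after sodium butyrate (SB). These genes were chosen by their counts in all 6 libraries: each had an Ensembl identifier, a raw count under 10 in each untreated library and a raw count of at least 10 in each SB library. Their mean level in SB, in CPM (the count as a share of the library total, times 1000000), was at least 3 times the mean in untreated cells. The 51 genes made up 0.380% of the 13404 Ensembl genes that had under 10 counts in each untreated library.

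The cells were wild-type primary RE cells, which the same research group had obtained earlier from newborn Hu lambs, and were grown in one medium with growth factors and hormones. Untreated cells (Con) were compared with cells given 1 µM SB for 24 h (SB), with 3 samples in each group. The experiment was run in triplicate wells and the number of lambs behind the culture was not given, so the spread between samples is that between wells. The columns used for Con carry a letter that the study also uses for the controls of a separate experiment. The match to Con is therefore less certain than that to SB. If these columns were the controls of that experiment, each difference between SB and Con would also be a difference between experiments. The epithelial identity of the cells was not checked against marker genes here, because gene symbols could not be assigned.

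RE cells form the stratified lining of the rumen, in which dividing basal cells give rise to spinous and granular layers. Butyrate is made by microbial fermentation in the rumen, and the epithelium takes it up and oxidises it as a fuel. Butyrate is also a known inhibitor of histone deacetylases, enzymes that remove acetyl groups from histone tails and so favour closed chromatin. Inhibitors of these enzymes are known to raise transcription of some genes that are otherwise little expressed, usually at millimolar butyrate. The libraries measured RNA and not histone acetylation, so the values below describe transcript counts only.

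Sequencing depth was 15869476 to 16582791 counts per Con library. The SB libraries had 16888522 to 18152857 counts, and their mean total was 1.09 times that in Con (two-sided exact permutation test, p = 0.1, below which groups of 3 cannot go). A count of 10 therefore stood for 0.603 to 0.630 CPM in Con and for 0.551 to 0.592 CPM in SB, and the fixed threshold was reached at a slightly lower level in SB. In bulk RNA, a larger share of a cell type and more RNA per cell cannot be told apart. The rule used the SB and Con values of all 6 libraries, so the levels and ratios of the 51 genes are a description, with no test. No gene symbols stand beside the identifiers, and looking them up in RefSeq gave 0 matches. The genes are therefore ranked from 1 to 51 by mean CPM in SB, and 2 of them are named. CPM is not divided by gene length, so the ranks order read counts and not transcripts.

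A complete lack of reads in Con was rare among the 51 genes. Only 1 gene had 0 counts in all 3 Con libraries, and 13 genes had 0 counts in at least 1 of them. Over all genes and libraries the raw count in Con ran from 0 to 9, with a median of 4. In SB it ran from 10 to 104, with a median of 21. The median gene thus had few reads per library in both groups. A description as switched on from silence could apply only to the single gene at 0, and a count of 0 does not establish silence.

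**Figure D1:**
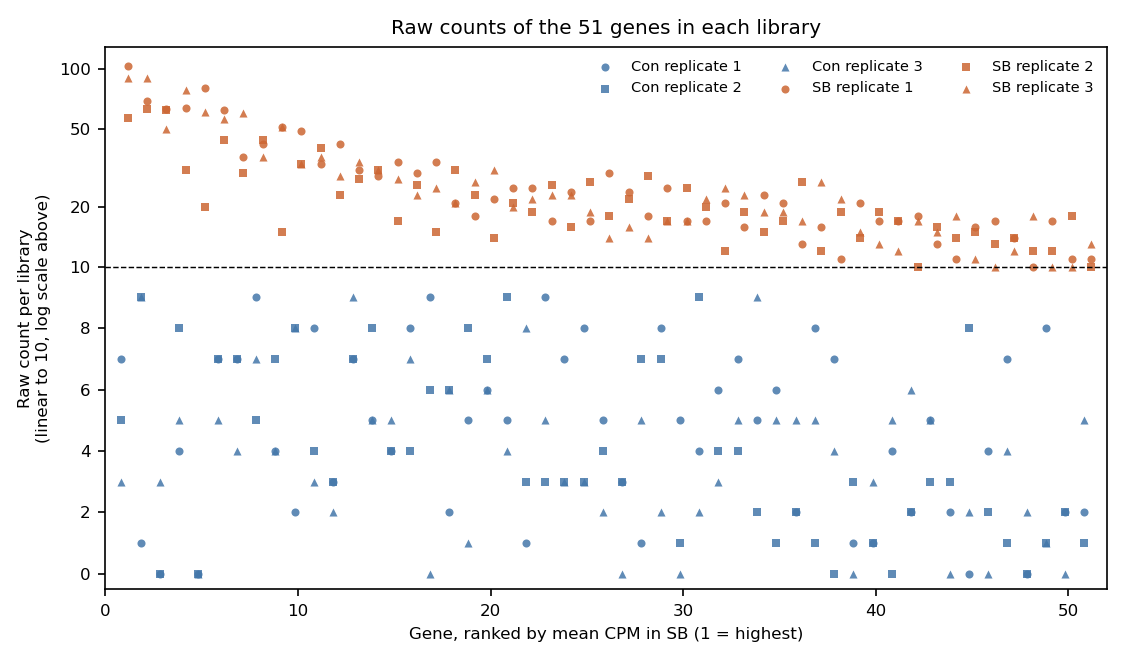
Raw counts per library (vertical axis, linear up to 10 and log-scaled above) of the 51 genes, ranked by mean CPM in SB (horizontal axis). Blue symbols are the 3 Con libraries and orange symbols the 3 SB libraries, equal counts lie on top of each other, and the dashed line at 10 counts separates the groups because the rule requires it. Con counts lie between 0 and 9 and SB counts between 10 and 104.

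The 51 genes together held 233, 206 and 195 counts in the Con libraries. In the SB libraries they held 1468, 1192 and 1426 counts. As a summed level this was 13.1 ± 1.27 CPM in Con and 77.3 ± 10.3 CPM in SB (SD, n = 3), a ratio of 5.91. SB replicate 2 had the lowest sum of the SB libraries, at 66.4 CPM, beside 86.9 and 78.6 CPM. The genes therefore remained a minute part of the SB libraries, under 100 CPM.

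Levels in SB were low and unevenly distributed. The mean level per gene in SB ran from 0.642 to 4.78 CPM with a median of 1.18 CPM, and in Con from 0 to 0.475 CPM with a median of 0.269 CPM. In SB, 11 genes had a mean of at least 2 CPM, 26 lay from 1 to 2 CPM and 14 were under 1 CPM. The 10 genes with the highest level held 39.9% of the summed SB level. Every SB count was at least 50 in 3 genes and at least 20 in 16 genes.

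ENSOARG00020005560, ranked first, had 7, 5 and 3 counts in Con and 104, 57 and 91 counts in SB. Its level was 0.309 ± 0.124 CPM in Con and 4.78 ± 1.5 CPM in SB (SD, n = 3), a ratio of 15.5. ENSOARG00020018824, ranked second, had 1, 9 and 9 counts in Con and 69, 63 and 91 counts in SB. Its level was 0.391 ± 0.285 CPM in Con and 4.20 ± 0.758 CPM in SB (SD, n = 3), a ratio of 10.8. The lowest SB library of both genes lay far above their highest Con library, and SB replicate 2 was the lowest of the SB libraries in both.

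The gene ranked 3 had 0, 0 and 3 counts in Con and 63, 62 and 50 counts in SB. The ratio of pooled counts per total count was 53.4, with a 95% interval of 18 to 261 (exact conditional interval). Its SB libraries were close to each other, at 3.31 ± 0.503 CPM (SD, n = 3). Intervals of this kind cover counting error only, and reads without molecular identifiers are not independent molecules.

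The gene ranked 5 was the one at 0 counts in all Con libraries. It had 81, 20 and 61 counts in SB, or 3.09 ± 1.86 CPM (SD, n = 3). Against a floor of 3 counts over the Con group, which a count of 0 allows, its mean level was 49.9-fold higher in SB. This value allows for counting error in Con only, and not for error or spread in SB. Its SB libraries were far apart, since the 20 counts of SB replicate 2 have an exact Poisson 95% interval of 12.2 to 30.9 and the 81 counts of SB replicate 1 one of 64.3 to 101.

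The other genes among the 10 highest started from 15 to 21 counts over the Con group. The gene ranked 4 had 4, 8 and 5 counts in Con and 64, 31 and 79 in SB. The gene ranked 6 had 7, 7 and 5 counts in Con and 62, 44 and 56 in SB. The gene ranked 9 had 4, 7 and 4 counts in Con and 51, 15 and 51 in SB. In the genes ranked 4 and 9 SB replicate 2 stood well below the other SB libraries, whereas the gene ranked 6 was more even.

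At the lower end of the ranking the counts were close to the threshold in SB. The gene ranked last had 2, 1 and 5 counts in Con and 11, 10 and 13 in SB. The gene ranked 48 had 0, 0 and 2 counts in Con and 10, 12 and 18 in SB, and the ratio of its pooled counts per total count was 18.3 with a 95% interval of 4.74 to 156. Large ratios therefore also occurred at few reads, with wide intervals.

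Ratios of mean CPM ran from 3.03 to 52.6 in the 50 genes with counts in Con, with a median of 4.64. They were from 3 to 5 in 27 genes, from 5 to 10 in 17 genes and at least 10 in 6 genes. With the gene at 0 in Con taken as the highest ratio, the 10 highest genes had a median of 8.63 and the other 41 genes one of 4.32. The lower limit of the 95% counting interval was above 1 in all 50 genes, above 2 in 39 and above 3 in 19. Of these 19 genes, 9 were among the 10 highest and 10 were among the other 41. The ranking uses the SB level, the numerator of the ratio, so larger ratios and limits among the 10 highest are partly built in. For the remaining 31 genes counting error alone leaves room for a ratio under 3. The genes were chosen by these same counts, for which the intervals make no allowance. Lower limits above 1 were largely built into the rule, and the limits above 3 are a description.

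**Figure D2:**
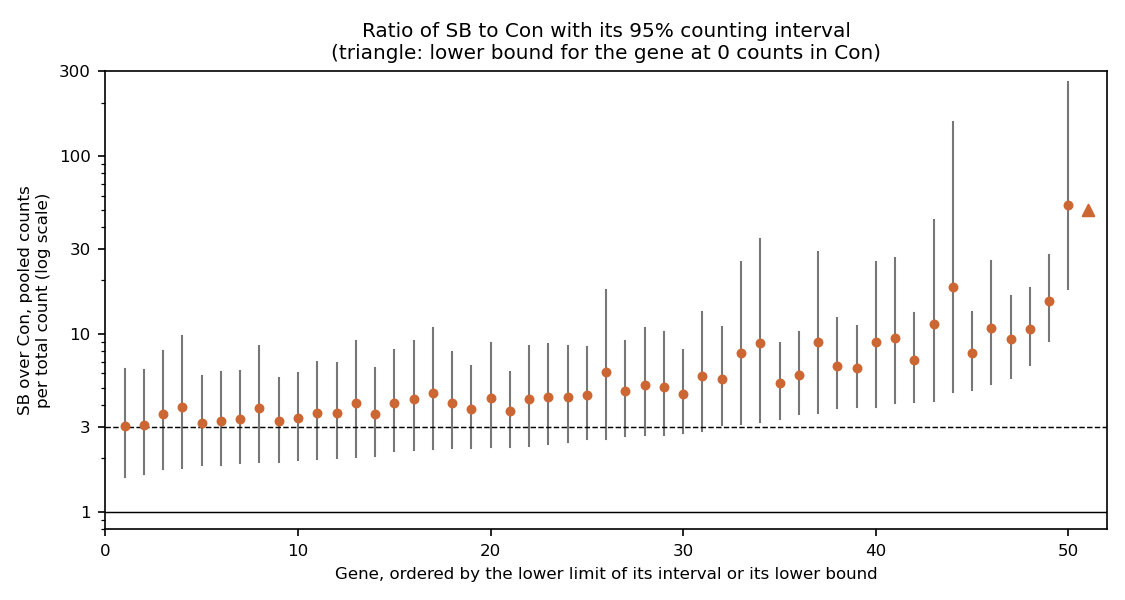
Ratio of SB to Con from pooled counts per total count (vertical axis, log scale) of the 51 genes, ordered by the lower limit of the interval (horizontal axis). Points are the ratios, bars their exact 95% counting intervals and the dashed line marks 3. The triangle, at 49.9, is the gene at 0 counts in Con, its mean SB level set against a floor of 3 counts without error in SB. The lower limit lies above 3 in 19 of the 50 genes with an interval.

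In the fit of DESeq2 across all 13103 tested genes, 3.08% were called higher in SB, which required a log2 fold change over 1 with an adjusted p-value below 0.05. All 51 genes passed the filter on low counts, through the SB group alone, and all 51 were called higher. The rule used this contrast, so nothing is read from that count. Likewise, the lowest SB count lay above the highest Con count in all 51 genes because the rule demands it, and it did so in 20.1% of tested genes. The fitted log2 fold change on the size-factor scale had a median of 2.42 over the 51 genes and of -0.01 over all tested genes. The standard error ran from 0.461 to 1.47 with a median of 0.674, which is wide beside the fold changes. The log2 fold change of ENSOARG00020005560 was 4.15 (SE 0.486) and that of ENSOARG00020018824 was 3.62 (SE 0.461).

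With the total-count scaling on which the CPM rule rests, the median over all tested genes was -0.21 on the log2 scale, where size factors gave -0.01. This scaling lowered the median of the 51 genes from 2.42 to 2.22 on the same scale.

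The rule fixed no order among the SB libraries but set unequal minimum levels. A count of 10 stood for 0.592 CPM in SB replicate 1, 0.557 in SB replicate 2 and 0.551 in SB replicate 3. Near the threshold this favours a higher CPM in SB replicate 1. By CPM, SB replicate 1 was highest in 26 of the 51 genes, SB replicate 3 in 14 and SB replicate 2 in 11. SB replicate 2 was lowest in 21 genes (41.2%), SB replicate 3 in 19 and SB replicate 1 in 11. Of the 13096 tested genes with counts in every SB library, they were lowest in 27.2%, 39.7% and 33.1%, in that order. Among the 10 highest, SB replicate 2 was lowest in 7 and highest in 0, with a median log2 ratio of -0.41 to the SB mean of each gene. Among the other 41 it was lowest in 14 and highest in 11, with a median of -0.05. Over all tested genes its median was 0.01. Whether the 10 highest genes differ from the other 41 in this was not tested.

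**Figure D3:**
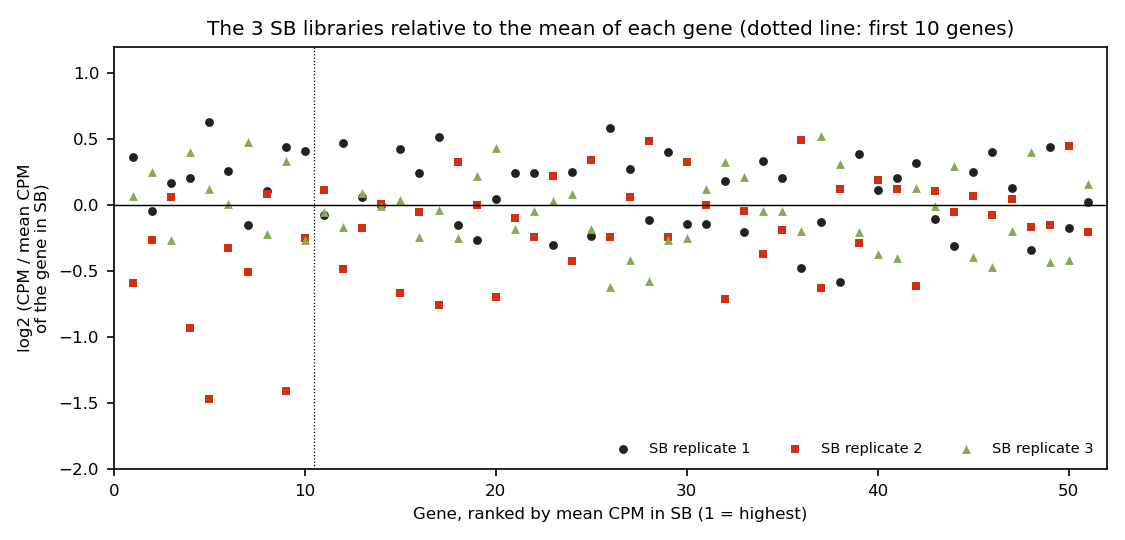
CPM of each SB library relative to the SB mean of the gene (vertical axis, log2) for the 51 genes ranked by mean CPM in SB (horizontal axis). Circles, squares and triangles are SB replicates 1, 2 and 3, and the dotted line closes off the first 10 genes. SB replicate 2 is the lowest library in 7 of these 10 genes and in 14 of the other 41.

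The spread between SB libraries was set beside that of counting alone. At these counts, with 3 libraries that the rule required to reach 10, a value near that of counting says little about the spread between wells. The median coefficient of variation of the SB level was 23.2%, beside 22.0% from counting alone. The dispersion index, the chi-square statistic of the SB counts over its 2 degrees of freedom, had a median of 1.19, and a value near 1 is what counting gives. It exceeded 3.00, the 95% point for counting alone, in 12 genes, of which 6 were among the 10 highest and 6 among the other 41. At a given real spread the index grows with the count, so genes with more reads exceed that point more readily. The share over all tested genes was not worked out. SB replicate 2 was lowest in 10 of these 12 genes and SB replicate 3 in 2. The widest spread was that of the gene ranked 5, with an index of 19.7 and a 4.30-fold range in CPM. The most even was the gene ranked 14, with 5, 8 and 5 counts in Con and 29, 31 and 31 in SB.

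Near silence was the common state in these cells and seldom ended with SB. Of the 26478 Ensembl genes, 13404 (50.6%) had under 10 counts in each Con library, and 9851 of those had 0 counts in all 6 libraries. Of the 13404 genes, 13043 (97.3%) reached 10 counts in no SB library. A count of at least 10 was reached in 1 SB library by 206 genes, in 2 by 87 and in all 3 by 68. Of these 68 genes, 51 also had the 3-fold ratio. With the groups exchanged, 13338 genes were near silent in SB. Of those, 189 reached 10 counts in 1 Con library, 71 in 2 and 35 in all 3, so crossings in 1 or 2 libraries were nearly as common that way.

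The share of genes that passed the rule was higher where a gene already had more reads in Con. Among the 10573 genes with 0 counts over the Con group, 1 passed (0.00946%). Of the 1267 genes with 1 to 3 counts over Con, 2 passed (0.158%). Of the 936 genes with 4 to 9 counts, 11 passed (1.18%), and of the 533 genes with 10 to 18 counts, 31 passed (5.82%). In the class with 19 to 27 counts 6 of 95 genes passed (6.32%). A gene with more reads in Con needs a smaller ratio to reach 10 counts, so the order of these shares is partly built into the rule.

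The same rule with the groups exchanged took 20 genes, with under 10 counts in each SB library and at least 10 in each Con library. The split was 51 genes higher and 20 lower in SB, so that 71.8% were higher. With DESeq2 size factors or TMM-scaled CPM in place of CPM it was 56 and 12, or 82.4% higher. The lower genes were also less separated. Only 3 of the 20 had a ratio of at least 5, beside 24 of the 51 with the gene at 0 included, and the lower limit of the counting interval exceeded 3 in 2. Their mean level in Con reached at most 1.61 CPM and 0 of them had a mean of 2 CPM, beside 11 of the 51 higher genes in SB.

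ENSOARG00020018890, the highest of the 20 by mean level in Con, had 14, 25 and 39 counts in Con and 3, 9 and 8 in SB. Its level was 1.61 ± 0.797 CPM in Con and 0.373 ± 0.172 CPM in SB (SD, n = 3). ENSOARG00020001145, the next, had 40, 11 and 14 counts in Con and 4, 9 and 9 in SB. Its Con level of 1.35 ± 1.00 CPM (SD, n = 3) rested on Con replicate 1. In the same DESeq2 fit, 1.79% of tested genes were called lower in SB, and 12 of the 20 were called. The other 8 had adjusted p-values of 0.0502 to 0.144. ENSOARG00020018890 lost its call without Con replicate 3, with a log2 fold change of -1.47 and an adjusted p-value of 0.116. ENSOARG00020001145 kept its call only without Con replicate 2, and leaving out any other library gave adjusted p-values of 0.0518 to 0.515. These values too come from the contrast that chose the genes and are a description.

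**Figure D4:**
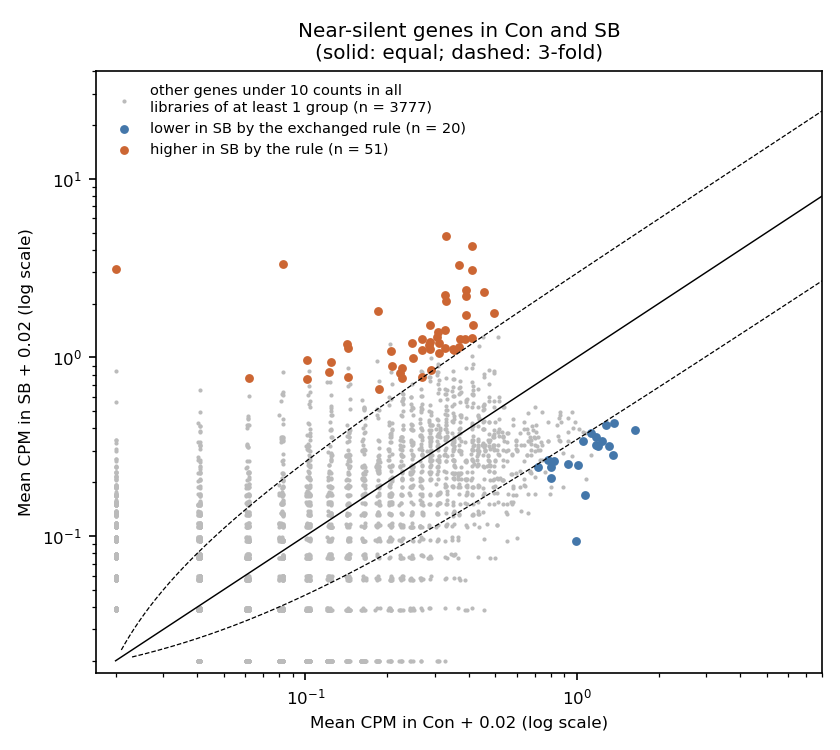
Mean CPM in Con (horizontal axis) and in SB (vertical axis), both plus 0.02 on log scales, of the Ensembl genes with under 10 counts in every library of at least 1 group and at least 1 read in all. The 51 genes higher in SB are orange, the 20 genes lower by the exchanged rule are blue and the other genes are grey, and the solid and dashed lines mark equal levels and a 3-fold ratio. Most grey points lie below 1 CPM in both groups, and the orange points reach 4.78 CPM in SB where the blue points reach 1.61 CPM in Con.

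Genes without reads in the low group seldom reached the threshold in either direction. Of the 10573 genes at 0 in all Con libraries, 8 reached at least 10 counts in some SB library. Of the 10507 genes at 0 in all SB libraries, 0 reached 10 counts in any Con library. With 1 to 3 counts over the low group, 35 of 1267 genes did so in SB and 13 of 1248 in Con. With 19 to 27 counts over the low group it was 51 of 95 in SB and 54 of 91 in Con. The SB libraries were deeper by a factor of 1.09, which bears on all these counts, and its part in them was not tested. After binomial thinning of all libraries to the smallest total, 45 genes were higher and 23 lower.

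**Figure D5:**
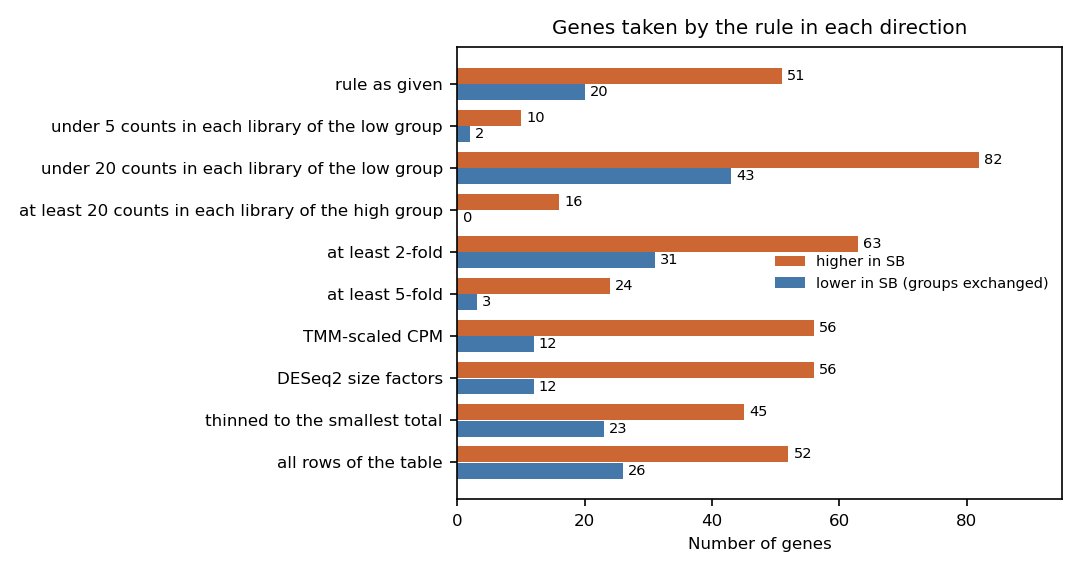
Number of genes (horizontal axis) that the rule took as higher in SB (orange) and, with the groups exchanged, as lower in SB (blue) under the rule as given and 9 other settings (vertical axis), each bar labelled with its count. The rule as given took 51 and 20 genes, and the counts ran from 10 to 82 for higher and from 0 to 43 for lower genes.

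To read the genes in a library that had no part in choosing them, the rule was applied to 5 libraries and the counts were taken from the other one. Leaving out SB replicate 1, 2 or 3 gave 67, 71 and 61 genes. Of these, 49, 49 and 50 had at least 10 counts in the library left out, and 47, 46 and 46 stood at least 3-fold above the Con mean there. The level was above the Con mean in 64 of 67, 70 of 71 and 60 of 61 genes. The median count in the library left out was 17, 15 and 18. Leaving out a Con library gave 66, 55 and 62 genes, of which 55, 45 and 47 had under 10 counts in it. The SB mean was at least 3-fold above the library left out in 39, 37 and 43 of them. Over the 3 SB libraries, 69.8% of the genes so chosen were at least 3-fold above Con in a library the choice had not used. The Con mean in these ratios is that of the same 3 libraries in which the choice required low counts, so only the SB side of each ratio was independent of it. With a Con library left out, the SB mean came from the 3 libraries required to reach 10 counts. Only the Con side of those ratios was independent of the choice. The same shares over all near-silent genes were not worked out. The sets also overlap and are not independent of each other. These shares are therefore a description.

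Several genes lay near the edges of the rule. Just inside the ratio of 3 were a gene with 7, 1 and 4 counts in Con and 14, 14 and 12 in SB, at 3.03, and one with 5, 3 and 5 in Con and 13, 16 and 15 in SB, at 3.08. Just outside were a gene with 9, 8 and 4 counts in Con and 14, 29 and 25 in SB, at 2.95, and one with 5, 8 and 1 in Con and 13, 14 and 16 in SB, at 2.83. A count of 9 in a Con library occurred in 8 of the 51 genes and a count of 10 in an SB library in 6. Conversely, 4 genes with a 3-fold ratio missed only because their highest Con count was 10, and 11 near-silent genes with a 3-fold ratio had a lowest SB count of 9.

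The loci without an Ensembl identifier, 974 in the table, were outside the rule. By the same thresholds 1 of them was higher in SB and 6 were lower, the opposite balance to the Ensembl genes. With all rows of the table the split was 52 higher and 26 lower, or 66.7% higher.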

How the data were processed

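RNA sequencing libraries of RE cells were compared between Con and SB (n = 3 each). Groups and replicate numbers came from the sample titles. Low-quality reads and those with adapter or undetermined sequence had been discarded by the authors, and HISAT2 had aligned the remainder to a Rambouillet sheep genome; the submitters' notes also name CASAVA version 1.8. The authors deposited raw counts per gene, whole numbers that were not normalised. The counting tool, annotation release, strandedness and treatment of shared reads are not given in the sources used here, so counts of near-identical or overlapping genes are uncertain.

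CPM was the count divided by the column total, times 1000000. The rule and its reverse were applied to raw counts and CPM. The 13103 genes that reached 10 counts throughout Con or throughout SB were fitted in DESeq2 (version 1.42.0, under R version 4.3.3) by its Wald test, with median-of-ratios size factors and Benjamini-Hochberg adjustment. Counting intervals were exact (95%, scipy version 1.17.1). The genes named were the 2 with the highest level in each direction, the number that could be named without gene symbols. The genes, the lists and the settings were chosen with earlier results of these data known. Fits were tested on simulated data. The alternatives included edgeR (version 4.0.16), limma-voom (limma version 3.58.1), other scalings, filters and thresholds, thinning, the replicate block and leaving out each sample. Predefined gene lists, gene lengths and sequences were not used here, because identifiers could not be paired with names. All 6 columns were used.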

Additional observations from a re-analysis of the deposited data

How the results depend on the processing

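The number of genes taken depended on the thresholds. Higher and lower genes numbered 10 and 2 with under 5 counts in the low group, 82 and 43 with under 20, 16 and 0 with at least 20 counts in the high group, and 24 and 3 at 5-fold. At 2-fold 31 genes were lower, and with DESeq2 size factors or TMM-scaled CPM 12 were. With each sample left out in turn, 55 to 71 genes were higher and 26 to 34 lower, of which 42 to 50 and 14 to 18 were among the 51 and the 20. Leaving out Con replicate 2, SB replicate 2 or SB replicate 3 gave 32, 34 and 31 lower genes, over 1.5 times 20.

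Of all tested genes, 578 were called lower with total-count scaling, beside 234, and 279 higher, beside 404. The other fits called 362 to 433 genes higher. Of the 51 genes, 40 to 51 were called higher in the 15 alternatives and 35 in every fit without 1 sample. None of the fits gave any of them a negative log2 fold change. After thinning, and with the filter of edgeR, only 45 of the 51 were tested, and an untested gene counts as not called. The rule used this contrast, so nothing is read from these counts or signs. The median log2 fold change of the 51 genes was 2.55 with limma-voom, 2.22 with total-count scaling, 2.52 after thinning and 2.42 to 2.73 without 1 sample. With the replicate block it was 2.62 in DESeq2 (48 genes called) and 2.39 in edgeR (51 called). The block changed no other call of a named gene than that of ENSOARG00020001145, whose adjusted p-value was 0.190 in DESeq2 and 0.0515 in edgeR. That gene also lost its call with limma-voom (adjusted p-value 0.0714) and in DESeq2 without the filter on low counts (0.0688). It lost it as well without any 1 sample other than Con replicate 2. Without Con replicate 1 its log2 fold change was -0.71. Deviations of same-numbered samples correlated at 0.0225 on average, so the numbers gave no sign of pairing.

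The ratio of summed levels was 6.71 with TMM, 6.78 with size factors and 4.90 without the 5 highest genes. SB replicate 2 was lowest in 5 of the 6 genes averaging at least 50 counts in SB (83.3%). With a ratio of 2 in place of 3, 79.1% of the genes chosen without an SB library passed in it. The causes were not tested. Few reads per gene limit the precision of every ratio. Gene lists were not run.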
